A study of Mus musculus with 4 samples.

Results

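The genes that encode the proteasome were taken from a set of brain microarrays as all those whose gene symbol starts with Psma, Psmb, Psmc, Psmd, Psme, Psmf or Psmg. In all, 48 genes met that rule, out of 16534 features with a gene symbol and 33269 features on the array. They lie on 16 chromosomes. Of these 48 genes, 46 encode parts of the proteasome, its activators and inhibitor, or its assembly chaperones. The other two, Psmc3ip and Psme3ip1, share only the prefix: their products are partner proteins named after a proteasome protein. Psma8 and Psmg4 were not analysed here.

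The proteasome degrades proteins that carry ubiquitin chains. Its 20S core is a barrel of alpha rings, which form the gate, around beta rings, whose catalytic subunits cut the substrate. The 19S regulatory particle sits on the barrel, where an ATPase ring unfolds substrates and non-ATPase subunits bind and trim the ubiquitin chain. Interferon-inducible catalytic subunits can replace the constitutive ones to form the immunoproteasome, and the transcription factor NRF1, encoded by Nfe2l1, raises many subunit genes together when proteasome activity is impaired. In brain ischemia the loss of ATP limits this machine, and ubiquitin conjugates accumulate in injured neurons.

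Ischemic core, ischemic penumbra and the matching healthy core and healthy penumbra were dissected from male C57BL/6J mice aged 9 weeks, at 6 h after permanent middle cerebral artery occlusion by an intraluminal filament. Every tissue name in the labels carries the word saline, which was injected into the ventricle just after occlusion as the vehicle of a peptide that none of these samples received. The design text speaks of 3 mice per group with neurological grades G1 and G2. It does not say whether tissue was pooled, nor whether healthy pieces came from the opposite hemisphere or from other animals. Each of 4 arrays compared an ischemic piece with its healthy counterpart. Core replicate 1 and penumbra replicate 3 carried the ischemic RNA in Cy5, whereas core replicate 2 and penumbra replicate 4 carried it in Cy3. The swapped pair of each region was counted as 1 replicate, because no label says that its arrays held different RNA extracts. Values are therefore called by size and not by a p-value, and an error is the SD between the 2 arrays of a pair, which includes dye bias. In tissue pieces, fewer cells of a type and less RNA per cell cannot be told apart.

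A gene counted as shifted where the mean log2 ratio of the pair reached 0.2 (1.15-fold) in size with the same sign on both arrays, and as 2-fold where the mean reached 1 log2 unit with at least 1.5-fold on each array. The 48 genes were well above background in all 8 channels. Their mean log2 intensity ranged from 8.33 for Psmb9 to 15.53 for Psmb4, with a median of 13.42, against 7.76 over all features, and 44 of the 48 lay at 10 or more. All 5 neuronal, astrocyte and oligodendrocyte markers of each list were measured, as brain tissue should have them. The pieces differed in what they held. In ischemic over healthy tissue, 3 of 5 measured neutrophil markers (S100a8, S100a9 and Retnlg) were at least 2-fold higher in both regions, with a summed log2 level of 13.70 and 13.83 in ischemic core against 11.40 and 11.46 in healthy core, and of 13.34 and 13.72 in ischemic penumbra against 11.73 and 11.82 in healthy penumbra. The 5 choroid plexus markers were at least 2-fold lower in core than in penumbra pieces, with a median log2 difference of -4.35 in ischemic and -3.40 in healthy tissue. In ischemic over healthy penumbra all 5 were shifted higher, with a median of 0.71. The part of these differences in the proteasome values was not tested.

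Sequences of 4 promoters are given first, because they belong to a constitutive catalytic subunit (Psmb5), an ATPase (Psmc6), an activator (Psme4) and an interferon-inducible subunit (Psmb8) and hold one of 2 motifs: the first 3 share one and Psmb8 holds the other. Each runs from 250 bases before to 50 bases after the gene's start, 5' to 3' along the gene, from RefSeq on GRCm38.p6. They are at chr14:54617946-54618245 on the minus strand (Psmb5), chr14:45329574-45329873 on the plus strand (Psmc6), chr11:30771525-30771824 on the plus strand (Psme4) and chr17:34197945-34198244 on the plus strand (Psmb8). Capitals mark the antioxidant response element TGACNNNGC, the class of site that NRF1 and NRF2 bind with small MAF proteins, on either strand in the first 3, and in Psmb8 the gamma-activated site TTCNNNGAA.
Psmb5: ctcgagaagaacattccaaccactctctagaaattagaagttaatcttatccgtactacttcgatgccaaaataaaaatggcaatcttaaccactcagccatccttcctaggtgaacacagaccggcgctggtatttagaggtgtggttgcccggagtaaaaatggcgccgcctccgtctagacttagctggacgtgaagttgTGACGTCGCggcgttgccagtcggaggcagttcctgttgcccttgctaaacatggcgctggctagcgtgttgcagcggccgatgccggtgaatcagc
Psmc6: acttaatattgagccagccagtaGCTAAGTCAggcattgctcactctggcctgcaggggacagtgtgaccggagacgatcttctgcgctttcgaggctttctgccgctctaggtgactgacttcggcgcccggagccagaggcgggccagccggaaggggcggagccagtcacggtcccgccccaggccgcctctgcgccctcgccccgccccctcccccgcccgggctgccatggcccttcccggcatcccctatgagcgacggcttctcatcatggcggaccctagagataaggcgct
Psme4: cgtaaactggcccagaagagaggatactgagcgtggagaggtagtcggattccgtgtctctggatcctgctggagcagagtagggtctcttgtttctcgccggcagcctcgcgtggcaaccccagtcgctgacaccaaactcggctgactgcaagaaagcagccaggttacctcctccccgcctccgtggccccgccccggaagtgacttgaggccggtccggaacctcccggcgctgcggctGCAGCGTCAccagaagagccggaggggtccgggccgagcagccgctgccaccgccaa
Psmb8: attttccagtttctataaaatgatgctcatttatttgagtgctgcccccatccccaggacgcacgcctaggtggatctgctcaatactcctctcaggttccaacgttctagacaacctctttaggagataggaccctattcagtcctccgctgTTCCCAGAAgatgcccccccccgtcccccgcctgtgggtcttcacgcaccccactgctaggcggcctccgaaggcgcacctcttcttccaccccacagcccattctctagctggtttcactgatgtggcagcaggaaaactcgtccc
The matches start at position -47 from the start in Psmb5, -227 in Psmc6, -7 in Psme4 and -97 in Psmb8. Of 41 proteasome genes with a promoter in the table, 6 held the antioxidant response element, 14.6% against 14.0% of 27025 genes. Beside Psmb5, Psmc6 and Psme4 these were Psmb6, Psmd9 and Psmd12. The median log2 ratio was 0.04 with the motif and -0.00 without it in the core, and 0.05 and -0.01 in the penumbra. The gamma-activated site was in 3 promoters (7.32%, against 9.55% of all genes), the interferon response element (GAAA and GAAA, 2 bases apart) in 4 (9.76%, against 3.99%), the CCAAT box in 16 (39.0%, against 41.1%) and a heat shock element of 3 inverted GAA units in 0 (against 0.662%), all read on both strands. With and without the interferon response element, the medians were -0.09 and 0.01 in the core and -0.12 and 0.03 in the penumbra. For the gamma-activated site they were 0.04 and 0.00 in the core and 0.12 and -0.01 in the penumbra. For the CCAAT box they were 0.00 and 0.01 in the core and -0.01 and 0.02 in the penumbra. These counts describe letters in a window and nothing about binding, and the part of the motifs in the ratios was not tested.

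In the ischemic core, the proteasome genes lay close to their level in healthy core. None of the 48 was shifted, against 15.0% of 24533 features (9.75% higher and 5.21% lower; 13.7% of those of log2 intensity 10 or more). None was 2-fold, against 0.310%. Mean log2 ratios ran from -0.12 for Psme1 to 0.18 for Psmb8 with a median of -0.01, the same as over all features. Their SD across genes was 0.06, against 0.19 over all features and 0.19 over bright ones. All 48 means were within 0.2 of 0, as were 84.5% of all features, and 44 were within 0.1.

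In the ischemic penumbra the spread among them was wider, at an SD of 0.12 against 0.20 over all features, while the median was -0.02 against -0.01. The mean of 26 genes was within 0.1 and that of 44 within 0.2 of 0, which was 91.7% of the genes against 76.6% of all features. Shifted genes numbered 3: Psme4 and Psmb10 were higher and Psmb11 was lower. That is 6.25% of the genes, against 22.5% of 24925 features (12.6% higher and 9.83% lower; 25.1% of bright ones). None was 2-fold, against 0.245%.

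**Figure D1:**
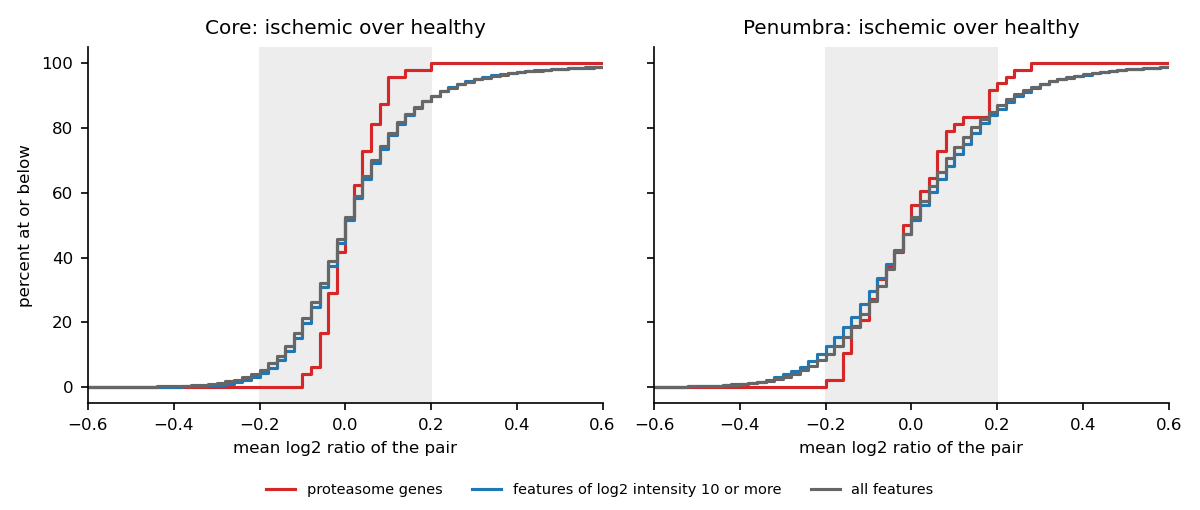
Percent of proteasome genes (red), of features of log2 intensity 10 or more (blue) and of all features (grey) whose mean log2 ratio of ischemic over healthy tissue lay at or below the value on the horizontal axis, for core (left) and penumbra (right), with the band within 0.2 shaded. The red curve is the steepest in the core, where all 48 genes lie in the band, and is closer to the others in the penumbra, where 44 do.

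Among the constitutive catalytic subunits, Psmb6 (the caspase-like site) had log2 ratios of -0.14 and 0.19 in the core and -0.11 and 0.21 in the penumbra, on replicates 1, 2, 3 and 4. Psmb7, the trypsin-like site, had -0.12 and 0.06 in the core and -0.15 and -0.19 in the penumbra. Psmb5, the chymotrypsin-like site and the target of clinical proteasome inhibitors, had -0.35 and 0.17 in the core and -0.42 and 0.07 in the penumbra. For Psmb5 and Psmb6, whose promoters hold the antioxidant response element, the arrays with ischemic RNA in Cy5 were negative and those with it in Cy3 positive in both regions, so no direction is given. Psmb7 alone of these had one sign on both penumbra arrays, with a mean of -0.17 ± 0.03 (SD, 2 arrays), short of 0.2.

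The interferon-inducible counterparts differed among themselves. Psmb8, which replaces Psmb5, was higher on every array, at 0.13 and 0.24 in the core (mean 0.18 ± 0.08) and 0.16 and 0.18 in the penumbra (mean 0.17 ± 0.01), without reaching 0.2. Its second probe read 0.15 and 0.23 in the core and 0.08 and 0.04 in the penumbra. Psmb10, which replaces Psmb7, read 0.02 and 0.16 in the core (mean 0.09 ± 0.10) and 0.10 and 0.30 in the penumbra (mean 0.20 ± 0.14), a 1.15-fold shift there. Psmb9, which replaces Psmb6 and lies near Psmb8 in the MHC region of chromosome 17, had both signs in each region. It read -0.08 and 0.02 in the core and -0.08 and 0.04 in the penumbra. Psmb8 and Psmb9 were among the dimmest of the genes, with mean log2 intensities of 8.72 and 8.33, and Psmb10 was bright, at 14.42. Psmb11, the subunit of the thymoproteasome of cortical thymic epithelium, read 0.04 and 0.00 in the core and -0.07 and -0.34 in the penumbra (mean -0.20 ± 0.19). It was dim, at 8.56, and its second probe was not measured above the limit in any comparison.

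The other beta subunits do not cut. Psmb4, the brightest gene of the set, read 0.15 and 0.01 in the core and 0.19 and 0.21 in the penumbra (mean 0.20 ± 0.02, just below the limit). Psmb3 was lower on every array, at -0.08 and -0.14 in the core and -0.05 and -0.15 in the penumbra. Psmb1 and Psmb2 averaged between -0.02 and 0.00 in both regions. Of the 7 alpha ring genes, none was shifted in either region, against 15.0% of all features in the core and 22.5% in the penumbra. Their means ran from -0.06 to 0.06 in the core and from -0.09 to 0.23 in the penumbra. The highest of these was Psma7, whose penumbra mean of 0.23 came from -0.01 on one array and 0.46 on the other. Psma1 differed least of all, at -0.00 and 0.01 in the core and 0.01 and -0.01 in the penumbra.

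In the 19S particle, none of the 6 ATPase genes and none of the 11 non-ATPase genes was shifted in either region. The shares of all features were 15.0% in the core and 22.5% in the penumbra. Psmc6 was the one ATPase gene with a mean above 0.1, at 0.14 and 0.12 in the core (mean 0.13 ± 0.02) and 0.16 and 0.17 in the penumbra (mean 0.16 ± 0.01). Its neighbour in the ring, Psmc4, read -0.10 and 0.00 in the core and -0.19 and -0.04 in the penumbra. Psmd2, a scaffold subunit that receives ubiquitin-like domains, was lower on every array, at -0.14 and -0.00 in the core and -0.21 and -0.10 in the penumbra (mean -0.16 ± 0.08). The lid deubiquitinase Psmd14, which removes ubiquitin chains from substrates, averaged -0.00 ± 0.04 in the core and 0.04 ± 0.11 in the penumbra. Of the 19S assembly chaperones, Psmd10 (gankyrin) read 0.12 and -0.02 in the core and 0.16 and 0.19 in the penumbra. Psmd5 and Psmd9 had opposite signs on the penumbra arrays, with means of -0.05 and -0.14.

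The 20S assembly chaperones Psmg1 and Psmg2 act as a pair, and their values lay on opposite sides of 0. Psmg1 read 0.04 and 0.04 in the core and 0.07 and 0.17 in the penumbra, and Psmg2 read -0.12 and -0.02 in the core and -0.27 and -0.08 in the penumbra. Psmg3 had both signs in each region.

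The activators open the alpha gate in place of the 19S particle. Psme4 (PA200) had the highest penumbra mean of the 48 genes, at 0.02 and 0.52 (mean 0.27 ± 0.35, 1.21-fold), and it read -0.18 and 0.34 in the core (mean 0.08 ± 0.37). Its other two probes averaged -0.18 and 0.17 in the penumbra, so the shift rests on the brightest probe. Psme1 and Psme2 together form the interferon-inducible PA28 ring, yet Psme1 was lower on every array, at -0.06 and -0.17 in the core and -0.08 and -0.23 in the penumbra (mean -0.16 ± 0.11), while Psme2 read 0.01 and -0.08 in the core and 0.16 and 0.19 in the penumbra (mean 0.17 ± 0.02). A second Psme2 probe averaged -0.06 in the core and 0.01 in the penumbra. Psme3 (PA28 gamma, a nuclear activator) read 0.13 and -0.12 in the core and 0.15 and -0.01 in the penumbra. Psmf1 (PI31, named as an inhibitor) read -0.12 and 0.10 in the core and -0.16 and -0.09 in the penumbra. Of the 2 genes that share only the prefix, Psmc3ip read -0.06 and -0.03 in the core and -0.11 and -0.11 in the penumbra, and Psme3ip1 read 0.10 and -0.25 in the core and 0.03 and -0.36 in the penumbra.

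**Figure D2:**
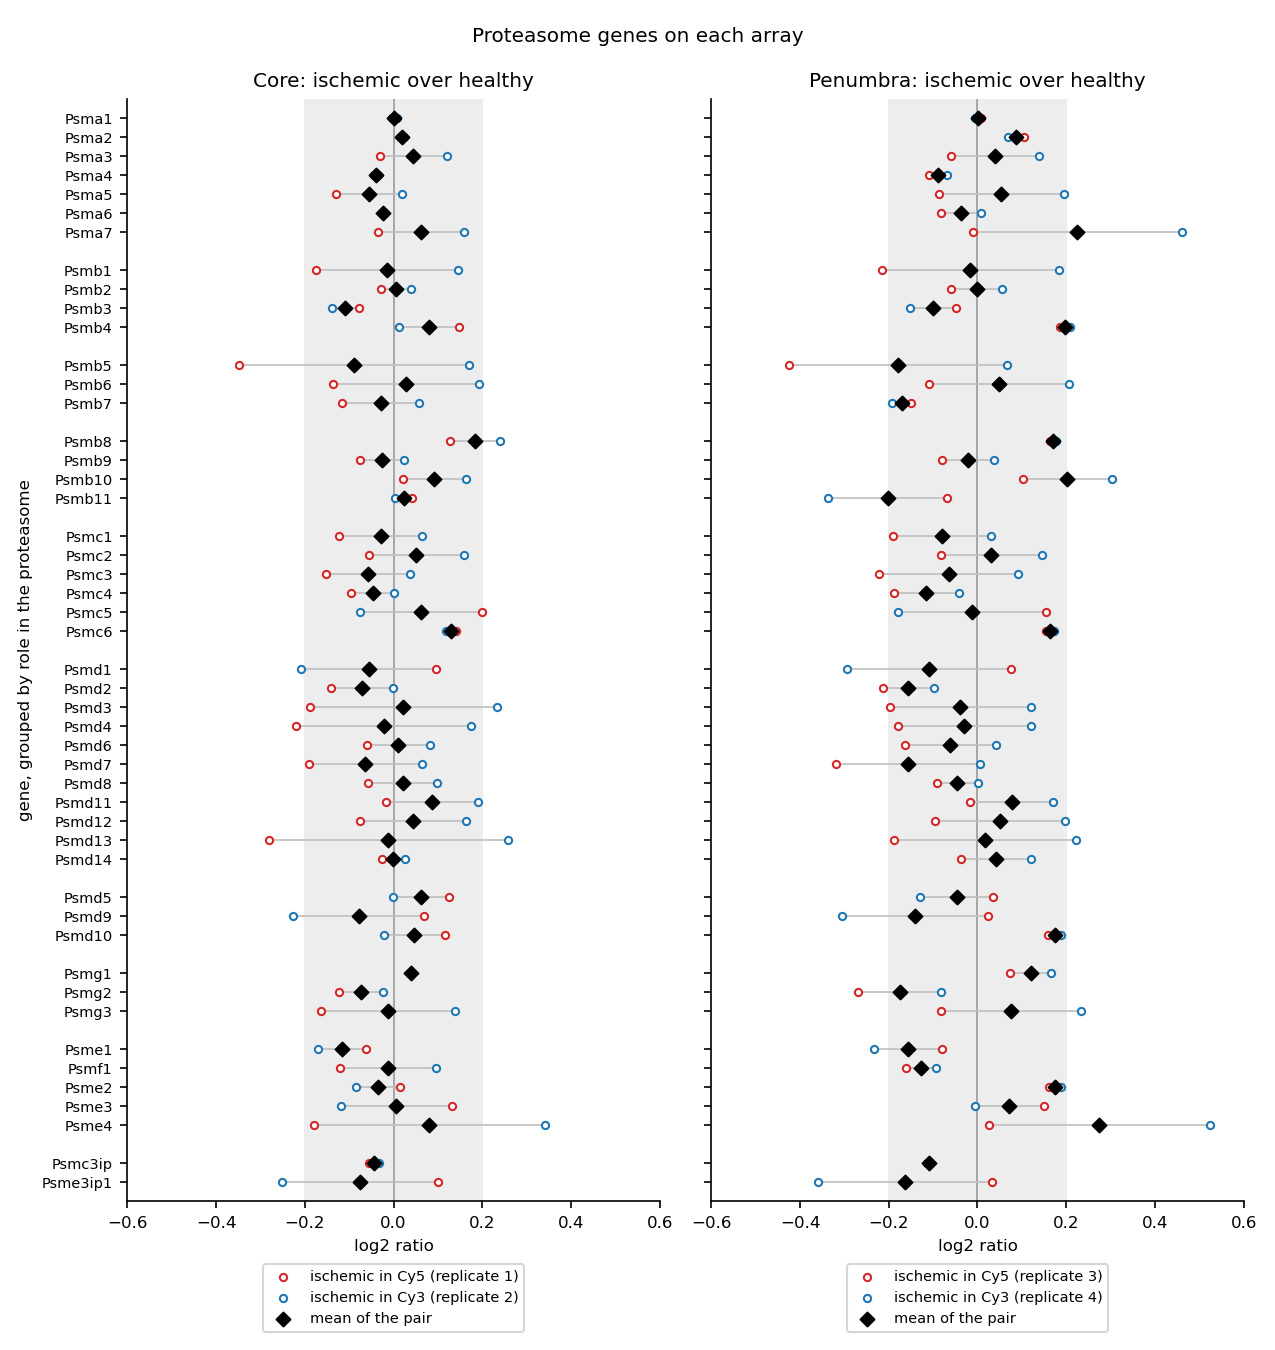
Log2 ratio of ischemic over healthy tissue for each of the 48 genes on each array, core on the left and penumbra on the right, with open circles for single arrays (red, ischemic in Cy5; blue, ischemic in Cy3), diamonds for the mean of the pair and the band within 0.2 shaded. Diamonds stay in the band in the core, and leave it to the right in the penumbra for Psme4, Psma7 and Psmb10 and to the left for Psmb11.

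Much of what separated the 2 arrays of a pair was common to both regions. The difference between the arrays of a pair divided by 2, here called the dye term, correlated between core and penumbra at r = 0.90 across the 48 genes, and its median size was 0.07 in the core and 0.09 in the penumbra. After the term of one region was taken from that of the other, a median size of 0.03 was left for the proteasome genes, against 0.05 for all features and 0.04 for bright ones. Means of the pair, in which a shared dye term cancels, correlated between the regions at r = 0.74, against 0.73 over all features. These correlations are descriptions across genes that share arrays and dyes. Single arrays of a pair gave different counts. Core replicate 2 alone put 7 genes past 0.2 (14.6%, against 27.4% of all features) and core replicate 1 alone put 3 (6.25%, against 25.0%). Penumbra replicate 4 alone put 12 past it (25.0%, against 35.2%) and penumbra replicate 3 alone put 6 (12.5%, against 27.2%).

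Genes with one sign on both arrays were counted next. In the core, 7 genes had positive and 7 had negative ratios on both arrays, which is 14.6% each against 26.9% and 28.0% of all features. In the penumbra, 9 were positive and 10 negative, against 30.3% and 32.4%. On all 4 arrays, 6 genes were positive (Psma2, Psmb4, Psmb8, Psmb10, Psmc6 and Psmg1) and 6 were negative (Psma4, Psmb3, Psmd2, Psmg2, Psme1 and Psmc3ip), against 17.9% and 17.5% of all features. The second probes of Psma4, Psmb3, Psmd2 and Psmg2 each had at least 1 positive array, so their one-sign counts rest on the brightest probe.

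A limma fit over arrays with a dye coefficient was also run, in which that coefficient takes up the dye term shared by the regions. Its p-values therefore measure only the difference in dye term between the regions, pooled with that spread over all features. They do not measure the SD between the arrays of a pair. The fit called 1 of the 48 genes in the core against 29.0% of all features. This was Psmb8, with an adjusted p of 0.0121. In the penumbra it called 17 genes, 8 higher and 9 lower, against 42.7% of all features. Without the dye coefficient the p-values measure only the spread between arrays. That fit called 0 in either region, against 1.59% of all features in the core and 1.84% in the penumbra. At an unadjusted p under 0.05 it had 1 gene in the core and 2 in the penumbra. Shares of all features at that unadjusted limit were not counted, so these 2 counts have no background beside them. Scaling each array by its median in place of loess moved the penumbra median of the genes to -0.12, against -0.03 for all features, with 5 genes shifted lower (10.4%, against 12.3% of all features) and 0 higher. These limits concern the penumbra more than the core, where median centring left 0 genes shifted.

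**Figure D3:**
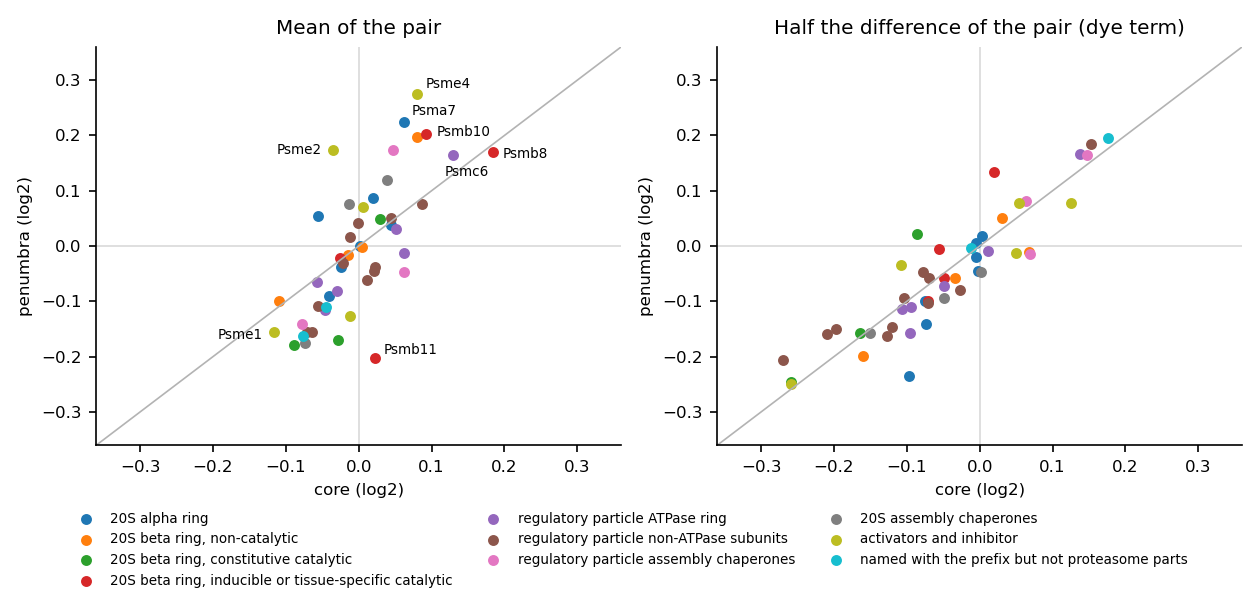
Core (horizontal) against penumbra (vertical) for the 48 genes, coloured by role, with the mean log2 ratio of the pair on the left and the difference of the pair divided by 2 on the right, and the line of equality in grey. Points on the right lie along the line (r = 0.90), and on the left Psme2, Psme4, Psma7 and Psmb11 lie farthest from it.

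The difference between the regions (core ratio minus penumbra ratio, within each dye orientation) passed 0.2 for 2 genes, 1 higher and 1 lower, against 12.1% of 25246 features (5.87% higher and 6.27% lower). None was 2-fold, against 0.0594%. Under median centring 5 genes passed 0.2, all higher in the core ratio (10.4%, against 12.9% of all features). One sign in both orientations was held by 21 genes that were higher and 13 that were lower, against 35.6% and 30.9% of all features. Psmb11 was 0.23 ± 0.16 higher in the core ratio, from 0.11 and 0.34 in the 2 orientations. Psme2 was lower, at -0.21 ± 0.09, from -0.15 and -0.27, and its second probe gave -0.07. Psme4 came next, at -0.19 ± 0.01, while its other two probes gave 0.11 and -0.09, so this too rests on the brightest probe. It was followed by Psma7 at -0.16 ± 0.20 and Psmd10 at -0.13 ± 0.12. Above 0 stood Psmb7 at 0.14 ± 0.15, Psmf1 at 0.12 ± 0.10, Psmd5 at 0.11 ± 0.03, Psmg2 at 0.10 ± 0.06 and Psmd7, a lid subunit, at 0.09 ± 0.05. The limma fit with a dye coefficient called 0 of the 48 genes for this difference, against 7.09% of all features, with 3 at an unadjusted p under 0.05 (1 higher and 2 lower). Without that coefficient limma called 0, against 0.00792%, with 0 at an unadjusted p under 0.05. No share of all features was counted at the unadjusted limit, so the 3 and the 0 have no background beside them.

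Core and penumbra pieces were also set against each other within one dye, for ischemic and for healthy tissue in turn. Most proteasome genes differed by less than 0.2 log2 between the pieces after loess. In ischemic tissue 50% were shifted under median centring and 52.1% under spike-in scaling, against 44.1% and 54.15% of all features. One sign in both dyes was held by 20 genes that were higher and 12 that were lower in ischemic core over ischemic penumbra, against 41.5% and 32.3% of all features, and by 21 and 12 in healthy core over healthy penumbra, against 41.0% and 32.1%. In ischemic core over ischemic penumbra 5 genes were shifted (2 higher and 3 lower, 10.4% against 34.3% of all features, of which 19.0% were higher and 15.3% lower), and in healthy core over healthy penumbra 6 were (3 higher and 3 lower, 12.5% against 28.2%, of which 15.3% were higher and 13.0% lower). The split of the ischemic comparison depended on the scaling. It was 23 higher and 1 lower under median centring, with 47.9% of proteasome genes and 28.8% of all features higher. With Agilent's processed signals it was 12 higher and 1 lower, with 25% of proteasome genes and 30.7% of all features higher. With spike-in scaling it was 24 higher and 1 lower, with 50% and 47.5% higher. In healthy tissue spike-in scaling gave 15 higher and 1 lower, with 31.25% and 42.1% higher. Psmb11 was the only gene of the 48 that was 2-fold, against 1.35% of all features in ischemic and 1.13% in healthy tissue. Its log2 intensity was 9.14 and 9.16 in ischemic core, against 7.95 and 7.76 in ischemic penumbra, and 9.10 and 9.15 in healthy core, against 8.02 and 8.09 in healthy penumbra. The difference was 1.30 ± 0.15 (2.46-fold) in ischemic and 1.07 ± 0.02 (2.10-fold) in healthy tissue. Its second probe, not above background by the rule used, gave 0.05 and -0.07, so the difference rests on a single dim probe. On the chromosome 14 map of GRCm38.p6 the gene lies beside Psmb5 without overlap, and Psmb5 differed by 0.13 ± 0.05 in ischemic and 0.04 ± 0.03 in healthy tissue.

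Psmc3ip, a meiotic recombination factor in testis, was lower in core pieces, at 8.18 and 8.28 in ischemic core against 8.75 and 8.85 in ischemic penumbra, and at 8.23 and 8.31 in healthy core against 8.86 and 8.96 in healthy penumbra. The differences were -0.57 ± 0.00 and -0.64 ± 0.01, and its second probe gave -0.68 and -0.72. The gene overlaps the end of Mlx on chromosome 11, and whether its probes lie in the overlap was not tested. Limma over arrays called Psmb11 and Psmc3ip and no other of the 48 genes, against 16.4% of all features in ischemic and 14.1% in healthy tissue. Psma2, an alpha ring subunit, was also past the limit, at -0.53 ± 0.57 and -0.46 ± 0.59, but 1 array decided it. Both channels of core replicate 2 stood apart, with ischemic core at 14.12 and healthy core at 14.11, while the other 6 channels lay between 14.93 and 15.08. Without that array the differences were -0.13 in ischemic and -0.05 in healthy tissue.

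Smaller differences between pieces were seen for 5 genes. Psmb10 was higher in core, by 0.20 ± 0.14 in ischemic tissue (just under the limit) and 0.31 ± 0.09 in healthy tissue. Psme4 was 0.11 ± 0.13 in ischemic and 0.30 ± 0.14 in healthy tissue, and Psmf1 was 0.27 ± 0.01 in ischemic and 0.16 ± 0.11 in healthy tissue. Psme2 was -0.25 ± 0.05 in ischemic and -0.05 ± 0.04 in healthy tissue, although its second probe gave -0.04 and 0.03. Psmd6, a lid subunit, was -0.14 ± 0.23 in ischemic and -0.21 ± 0.28 in healthy tissue, but penumbra replicate 3 decided it, with ischemic penumbra at 13.78 and healthy penumbra at 13.94 while the other 6 channels lay between 13.48 and 13.60. The other orientation gave 0.03 in ischemic and -0.01 in healthy tissue. Among genes that did not reach 0.2, Psmd8 and Psmd1, subunits of the regulatory particle, were 0.16 ± 0.08 and 0.14 ± 0.04 in ischemic tissue. In healthy tissue the assembly chaperones Psmg1, Psmg3 and Psmg2 were 0.16 ± 0.04, 0.13 ± 0.06 and -0.11 ± 0.15. A second Psmg2 probe had the opposite sign there, at 0.17. The markers of the pieces differed as well. In core over penumbra, all 5 oligodendrocyte markers were lower in both tissues, with medians of -0.60 in ischemic and -0.63 in healthy tissue. Of 5 striatal markers 4 were lower, with medians of -1.52 in ischemic and -1.79 in healthy tissue. Cortical markers were higher, 5 of 5 in ischemic (median 0.86) and 4 of 5 in healthy tissue (median 0.48), and so were 4 of 5 neuronal markers in ischemic (median 0.34) and 3 of 5 in healthy tissue (median 0.24). Their part in the result was not tested.

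**Figure D4:**
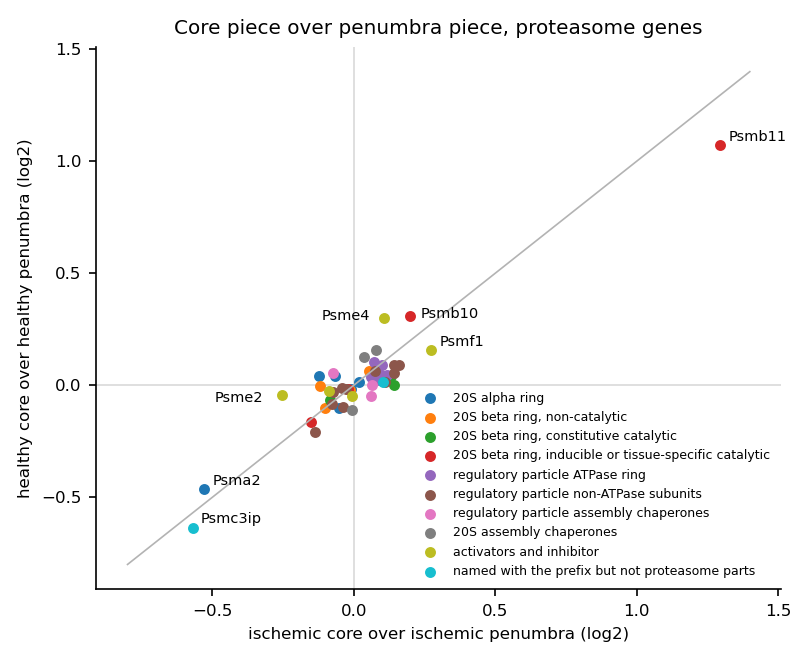
Log2 difference of core over penumbra pieces in ischemic (horizontal) and healthy (vertical) tissue for the 48 genes, coloured by role, with the line of equality in grey. Psmb11 lies alone at the upper right, Psma2 and Psmc3ip lie at the lower left, and the next highest on the vertical axis is Psmb10, at 0.31.

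Genes that act with the proteasome were read from 7 lists, of which 55 of 63 entries were measured. In the core 4 of the 55 were shifted, all higher, against 15.0% of all features. In the penumbra 15 were shifted, 11 higher and 4 lower, against 22.5%. The factor that stood out was Maff, a small MAF protein that pairs with NRF1 and NRF2 at the antioxidant response element. It read 1.17 and 0.97 in the core (mean 1.07 ± 0.14, 2-fold) and 0.83 and 0.69 in the penumbra (mean 0.76 ± 0.10). NRF1's own gene Nfe2l1 had both signs in each region, at -0.06 and 0.08 in the core and -0.22 and 0.02 in the penumbra. The NRF2 gene Nfe2l2 read 0.30 and 0.09 in the core and 0.31 and 0.30 in the penumbra (mean 0.31 ± 0.01). Stat3, an activator of beta subunit genes in other cells, read 0.07 and 0.29 in the core and 0.23 and 0.38 in the penumbra (mean 0.31 ± 0.11).

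Of 8 other subunits and maturation factors measured, 0 were shifted in the core and 3 in the penumbra, all higher. Of all features 15.0% were shifted in the core and 22.5% in the penumbra. Pomp, which helps the 20S barrel to close, read 0.09 and 0.08 in the core and 0.17 and 0.24 in the penumbra. Sem1, a small lid subunit, read -0.01 and 0.31 in the core and 0.05 and 0.35 in the penumbra. Ecpas, a proteasome-binding scaffold, read -0.05 and 0.33 in the core and 0.00 and 0.42 in the penumbra.

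Of the 4 ubiquitin genes 0 were shifted in either region, against 15.0% of all features in the core and 22.5% in the penumbra. Ubb, which encodes a ubiquitin precursor, read 0.74 and -0.74 in the core and 0.62 and -0.82 in the penumbra, so the dye term was larger than the mean for this very bright probe. Among 10 measured genes of ubiquitin activation and shuttling, Zfand2a (AIRAP, an arsenite-inducible proteasome partner) read 0.29 and 0.16 in the core and 0.34 and 0.29 in the penumbra. Ubqln4, a shuttle that carries ubiquitinated proteins to the proteasome, was lower in the penumbra, at a mean of -0.31 ± 0.14. None of 8 genes for the p97 segregase, which pulls substrates out of complexes, and its cofactors was shifted, against the same shares of all features. Vcp itself averaged -0.05 in the core and -0.06 in the penumbra.

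Of 8 measured class I antigen processing genes, which receive peptides from the immunoproteasome, 1 was shifted in the core and 2 in the penumbra. Irf1, the interferon response factor that drives immunoproteasome genes, read 0.29 and 0.26 in the core (mean 0.27 ± 0.02) and 0.23 and 0.22 in the penumbra (mean 0.22 ± 0.01). The chaperone Calr averaged -0.21 ± 0.12 in the penumbra, and the peptide transporter Tap1 averaged -0.05 in the core. Among 10 measured deubiquitinases, Tnfaip3 (A20, which restrains NF-kB) was highest, at 0.82 and 0.68 in the core (mean 0.75 ± 0.10) and 0.29 and 0.27 in the penumbra (mean 0.28 ± 0.02). Usp15 averaged 0.23 ± 0.24 and Otub2 -0.23 ± 0.19 in the penumbra.

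**Figure D5:**
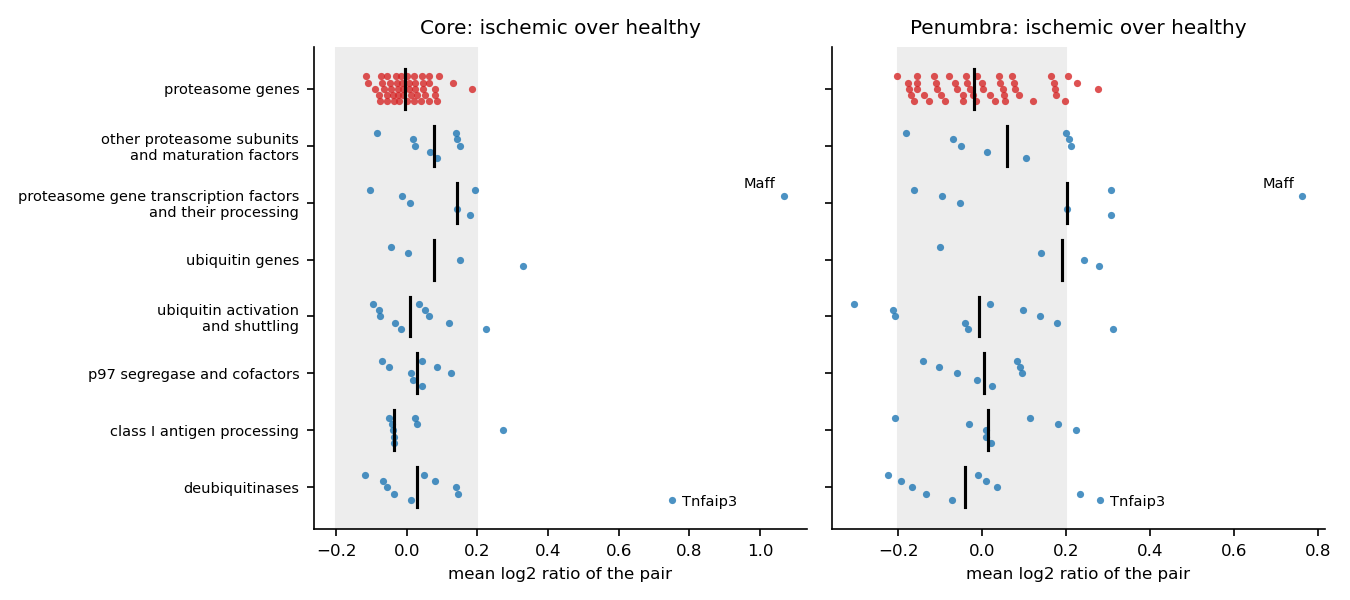
Mean log2 ratio of ischemic over healthy tissue for the 48 proteasome genes (red) and for the measured genes of 7 related lists (blue), core on the left and penumbra on the right, with a bar at each median and the band within 0.2 shaded. Maff and Tnfaip3 lie far to the right in the core, at 1.07 and 0.75, while every red point is within the band there.

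All ratios above are relative to the bulk of the features, which loess sets near 0. The 10 spike-in control transcripts had a median log2 ratio of 0.48 in the core and 0.46 in the penumbra after that step. Scaled to them, the core and penumbra medians were -0.48 and -0.48 for the proteasome genes, and -0.48 and -0.47 for all features, so the offset was shared by all features. On that scale 48 proteasome genes in the core and 47 in the penumbra passed 0.2, all lower, as did 93.5% and 91.2% of all features. The amount of RNA behind this offset was not tested.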

How the data were processed

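RNA of 4 tissues was measured on 4 two-colour Agilent arrays. Per the file headers, the deposited intensity values of each spot came from Agilent's scanner software, which the submitters' processing notes give as Feature Extraction 11.0.1.1. A second table that the authors deposited holds log10 ratios of Cy5 over Cy3, which equalled the log10 of the scanner's processed signals within 5e-06, so scale and direction were known. Column medians of that table were -0.0215 (core replicate 1), 0.00516 (core replicate 2), -0.0199 (penumbra replicate 3) and -0.0115 (penumbra replicate 4).

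Median signals were corrected by normexp (offset 50) and normalized by loess within arrays in limma 3.58.1 (R 4.3.3), and single channels by Aquantile. Control spots and spots with outlier marks were left out. Probes were kept for a comparison when 1 of its tissues had them well above background on each of its arrays, and the brightest probe stood for a gene. The 48 genes had 68 probes, and 17 genes had several. Of 41174 probes, 23374 were named through RefSeq accessions (GRCm38.p6). The median spot read 192 to 225.5 across arrays for Cy3 (local background 64 to 66) and 284 to 310 for Cy5 (local background 70 to 71). No spot was saturated. Each region has 1 replicate of 2 arrays, and this number limits the precision.

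The members, the lists and the tests were chosen with earlier results of these data known, so they give no independent support. Genes named with values were drawn from the catalytic and inducible subunits, the activators, the 6 highest and 4 lowest members with one sign per comparison, and up to 3 genes per related list and region. Other genes were named after their values were seen, and some genes of the related lists are not reported here. The limma p-values were adjusted by Benjamini-Hochberg over all features. The rules were tested on simulated data. Alternatives were processed signals, median centring, no filter, the mean over probes, spike-in scaling, a limit of 0.3, single arrays and limma.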

Additional observations from a re-analysis of the deposited data

Results flagged for a closer look

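Psmb11 was singled out because its ratio of ischemic over healthy tissue took opposite signs in the regions on every array, with a mean log2 ratio of 0.0226 for core arrays (0.04 and 0.00) and -0.203 for penumbra arrays (-0.07 and -0.34). The difference of 0.23 had an adjusted p of 0.088 in the limma fit with a dye coefficient, and the core values lie next to 0. It rests on 1 probe with a mean log2 intensity of 8.56.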

How the results depend on the processing

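No paired analysis was possible because core arrays are numbered 1 and 2 and penumbra arrays 3 and 4, so the groups share no replicate number, and the regions were matched by dye orientation instead. Over the named genes and alternatives, 1112 values moved by no more than the SD between the arrays of a pair, 243 moved by more, and 13 values of shifted genes changed sign, all under spike-in scaling. That scaling takes nearly the same amount from every feature, so ratios smaller than that amount turn by construction. The numbers that follow count shifted genes among the 48 proteasome genes and the 55 related genes. Leaving out 1 array gave 3 to 7 proteasome genes in the core (0 with both arrays), against 25.0 to 27.4% of all features. In the penumbra it gave 6 to 12 (3 with both), against 27.2 to 35.2%. For the difference between regions it gave 1 to 5 (median 0.0165 to 0.0194), against 15.5 to 20.2%. In healthy core over penumbra it gave 5 to 10 (median 0.0126 to 0.0143), against 31.9 to 33.3%. In ischemic core over penumbra it gave 6 to 9 (median 0.0276 to 0.0395), against 37.8 to 41.2%. Single arrays put the proteasome median between -0.06 and 0.04 in the core and between -0.08 and 0.06 in the penumbra. For the related genes leaving out 1 array gave 17 to 20 in the core and 22 to 24 in the penumbra. The shares of all features were again 25.0 to 27.4% and 27.2 to 35.2%. Spike-in scaling gave 48 lower proteasome genes and 49 related genes in the core and 47 and 46 in the penumbra, with proteasome medians of -0.481 and -0.482. On that scale 94.3% of all features were shifted in the core and 92.0% in the penumbra. Spike-in scaling turned Irf1 (-0.20) and Zfand2a (-0.25) in the core. In the penumbra it turned Psmb10 (-0.26), Psme4 (-0.19), Ecpas (-0.25), Irf1 (-0.24), Nfe2l2 and Stat3 (-0.16 each), Pomp (-0.26), Sem1 (-0.26), Tnfaip3 (-0.18), Usp15 (-0.23) and Zfand2a (-0.15). Between pieces it gave 25 proteasome genes (median 0.196) in ischemic and 16 (0.169) in healthy tissue, against 54.15% and 47.9% of all features. Median centring gave 5 proteasome and 9 related genes in the penumbra, 5 (median 0.111) for the difference, 24 (median 0.184) between ischemic pieces and a median of 0.0854 between healthy pieces. Processed signals gave 13 (median 0.104) between ischemic pieces, against 49.15% of all features, and a median of 0.0960 between healthy pieces. The mean over probes gave 1 proteasome gene in the penumbra, 0 for the difference, 3 between ischemic pieces, a median of 0.0201 between healthy pieces, and 0 genes at 2-fold in place of 1 between pieces of either tissue. A limit of 0.3 gave 0 proteasome genes in the penumbra and the difference, 3 between ischemic pieces, and 2 related genes in the core and 5 in the penumbra. At 0.3 the shares of all features were 6.31% in the core, 9.48% in the penumbra, 3.97% for the difference and 19.97% between ischemic pieces. Limma over arrays gave 0 in the penumbra and the difference and 2 between pieces of either tissue, and 2 and 1 related genes in core and penumbra. Limma called 1.59% of all features in the core, 1.84% in the penumbra, 0.00792% for the difference, 16.4% between ischemic and 14.1% between healthy pieces. With a dye coefficient it gave 1 proteasome gene in the core, 17 in the penumbra and 0 for the difference, and 14 and 28 related genes. The shares of all features in that fit were 29.0% in the core, 42.7% in the penumbra and 7.09% for the difference. That fit was not run between pieces, where dye is already held fixed. The cause of these changes was not tested. By construction, single arrays keep the dye term and a stricter limit leaves fewer genes. Psmb8, Psmb9, Psmb11 and Psmc3ip were the dim genes, below a log2 intensity of 10.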
